A study of Mus musculus with 4 samples.

Results

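Spindle and kinetochore genes build the machine that pulls chromosomes apart in mitosis, and the circular RNAs (circRNAs) made from 10 of them are described here. The genes are Knl1, Bub1b and Cenpe of the kinetochore and its checkpoint, Kif11 and Tpx2 of spindle assembly, and Kif4, Kif23, Kif14, Kif20b and Ect2 of the central spindle and cell cleavage. A circRNA is a closed RNA loop in which a downstream splice donor has joined an upstream acceptor, and the reads over that back-splice junction count it. A circRNA was taken as a member when both of its ends lay inside the RefSeq span of 1 of the 10 genes (mm10, 1 bp tolerance), which gave 67 circRNAs of 40909 and 6071 junction reads, 0.142% of all. All 67 lay inside 1 coding gene, and 9 of the 10 Kif4 circles also lay inside the overlapping predicted gene Gm52438.

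The libraries came from primary mouse articular chondrocytes, the cells of joint cartilage, which had been thawed and passaged. There were 2 libraries of cells given recombinant human interleukin-1β (IL-1β), a cytokine that drives joint inflammation, for 24 h at 10 ng/ml, and the 2 control libraries are of the same cell type. Controls were taken from the source label, since the treatment text is the same for all samples. All RNA had been depleted of ribosomal RNA and digested with RNase R, which removes linear RNA, so the values are circRNA output and not mRNA levels. No label tells if a group's 2 libraries are separate cultures or animals, so a p-value here reflects just the variation among 4 libraries, which may be technical.

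Depth was 895774 and 980542 junction reads under IL-1β, against 1198010 and 1203855 in controls. CPM is the usual depth-scaled unit of junction reads, after TMM scaling, and a count of 0 allows up to 3.35 CPM per gene in the shallowest library (3 reads, counting error only, since amplified reads are not independent molecules). Of 12 chondrocyte markers 3 had any junction reads (Sox5, Sox6 and Hapln1), with a summed 271 and 328 CPM under IL-1β, against 411 and 243 CPM in controls, and Col2a1, Acan and Sox9 were at 0. Fibroblast markers with reads (5 of 8) summed to 89.2 and 73.4 CPM under IL-1β, against 143 and 220 CPM in controls, with Thy1 and Dcn at 0. Macrophage markers (1 of 6 with reads, Mrc1) summed to 10.0 and 8.27 CPM under IL-1β, against 12.8 and 0 CPM in controls, with Adgre1 and Csf1r at 0. Endothelial markers (2 of 6) summed to 155 and 118 CPM under IL-1β, against 99.1 and 123 CPM in controls, with Cdh5 and Kdr at 0. The part of these differences in the results below was not tested.

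As background, the kinetochore is the protein plate on each centromere that grips spindle microtubules, and unattached kinetochores hold the cell in mitosis through the spindle checkpoint. Kinesins then slide, carry and bundle microtubules, and the central spindle marks where the cell divides. Most genes of this machine are transcribed in a wave late in the cell cycle, driven in part by a promoter element called the CHR (cell cycle genes homology region), with the letters TTTGAA or in other genes TTCGAA, which MuvB-type complexes bind, and often by CCAAT boxes bound by NF-Y.

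Promoter sequences are shown because this element lies at most of these genes' starts, a property separate from their circRNAs. RefSeq windows (GRCm38.p6, 250 bases before to 50 after each start) were at hand for 9 of the 10 genes, all except Tpx2, with a second start for Ect2. TTTGAA, searched on both strands, was in the windows of 8 of the 9 genes, against 17.9% of all 32851 windows. Within 50 bases of the start it was in 7 of the 9, against 4.94% of windows. Kif20b held 2 adjacent copies, Kif14 held it only at base -228, and Cenpe held none. The matches read 5′ to 3′ on the gene's strand with the element in capitals (TTCAAA is the same element on the other strand).
Knl1, chr2:119047138-119047167, plus strand, element at base 32 after the start: agggcggttagaTTTGAAtacttcagggac
Bub1b, chr2:118598239-118598260, plus strand, base 41: agagacgttaaaTTTGAAactt
Kif23, chr9:61946780-61946809, minus strand, base 3: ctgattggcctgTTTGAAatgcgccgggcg
Kif4, chrX:100626072-100626101, plus strand, base 20: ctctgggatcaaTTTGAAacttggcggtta
Kif20b, chr19:34922353-34922382, plus strand, base 8: gagccgccattgTTTGAAtttgaaaaccgg
Kif11, chr19:37376351-37376380, plus strand, base -19: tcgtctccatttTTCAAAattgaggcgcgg
Ect2, chr3:27153822-27153851, minus strand, base 16 of its second start: cgactggattttTTTGAAtcggaggcggca

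Of the other motifs searched on both strands, CCAAT was in the windows of 7 of the 9 genes, against 37.4% of all windows, and TTCGAA in 1, Bub1b, against 1.56%. The E2F-type letters TTTCCCGC as well as the variant TTTGGCGC were in 0 of the 9, against 1.07% and 0.514%. A match is a run of letters and not a tested binding site. The 250 bases before the start are given for Bub1b, the gene with most junction reads, and for the second start of Ect2, the 1 gene with a lower value under IL-1β, with both CHR hexamers and the NF-Y-type box of either strand in capitals. Both carry CCAAT upstream, and Ect2 carries a further TTTGAA.
Bub1b, chr2:118597961-118598210, plus strand: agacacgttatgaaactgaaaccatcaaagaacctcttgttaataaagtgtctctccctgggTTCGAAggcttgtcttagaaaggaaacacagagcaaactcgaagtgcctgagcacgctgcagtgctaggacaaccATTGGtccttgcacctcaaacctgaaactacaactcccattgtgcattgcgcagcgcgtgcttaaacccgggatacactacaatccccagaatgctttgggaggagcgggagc
Ect2, chr3:27153855-27154104, minus strand: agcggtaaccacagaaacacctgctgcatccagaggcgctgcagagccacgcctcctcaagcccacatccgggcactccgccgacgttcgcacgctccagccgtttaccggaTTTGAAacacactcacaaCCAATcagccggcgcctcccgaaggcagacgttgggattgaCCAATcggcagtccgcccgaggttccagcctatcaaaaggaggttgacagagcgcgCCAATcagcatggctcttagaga

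**Figure D1:**
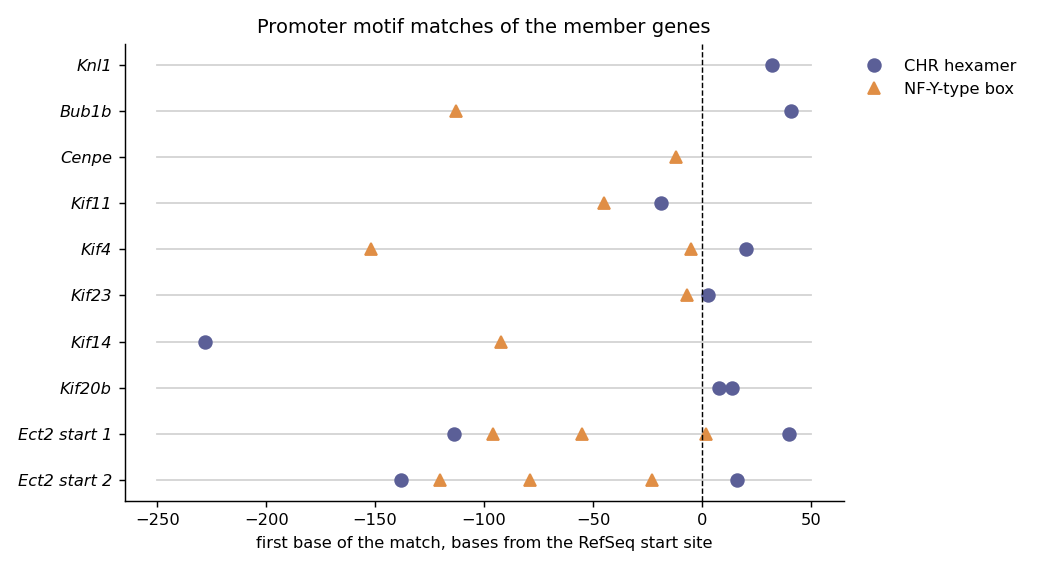
First base of each TTTGAA match (CHR hexamer, circles) and NF-Y-type box (triangles) in the RefSeq promoter windows of 9 genes, in bases from the start site (dashed line). In 7 genes a circle lies within 50 bases of a start. Ect2 has a further one at -114 from its first and -138 from its second start, and the 1 of Kif14 lies at -228.

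The comparison was whether IL-1β changed the circRNA output of these genes, the junction reads summed over the circles of each. Values were higher with IL-1β for 9 of the 10 genes and lower for Ect2, with a median log2 change of 1.20. Of 4879 tested hosts 48% had a positive change, with a median of -0.03. The 10 genes were chosen with earlier results of these data known. Their counts, median and sums therefore describe them and are no test of the set. Kif11 had enough reads to be tested through IL-1β library 1 alone (28 reads, 0 elsewhere), so its value could only be higher. Cenpe was tested only because of its 24 reads in IL-1β library 2, against 7 in control 1 and 0 elsewhere. With at least 50 reads required, both genes dropped out, and 7 of 8 were higher with a median of 1.03. Kif20b stayed with 50 reads in all, 28 and 10 under IL-1β against 0 and 12 in controls. Its controls alone would have reached neither filter. Ect2, with 18 and 24 reads under IL-1β, would not have reached 50 on those alone. Summed over the 10 genes, output was 1571 and 2007 CPM under IL-1β, against 1034 and 1324 CPM in controls. Without Bub1b, which holds 66.4% of the reads, the other 9 genes gave 656 and 706 CPM under IL-1β, against 315 and 348 CPM in controls. Both sums were above both controls in each IL-1β library.

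None of the 10 genes passed edgeR's quasi-likelihood test with Benjamini-Hochberg adjustment over all 4879 hosts (adjusted p between 0.882 and 0.9997), and 0% of all hosts did. At an unadjusted p under 0.05 there was 1 of the 10, Knl1, against 4.55% of hosts (2.09% higher and 2.46% lower). In 4 genes, Knl1, Kif23, Kif14 and Tpx2, both IL-1β libraries lay above both controls, as in 17% of hosts, and in Ect2 both lay below, as in 18.9%. With 2 libraries against 2, an exact permutation test of a single gene cannot give a two-sided p below 0.333. Without IL-1β library 2 the number of genes with a higher value was 7 of 10. In bulk cultures, a different number of dividing cells and a different amount of RNA per cell cannot be told apart.

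**Figure D2:**
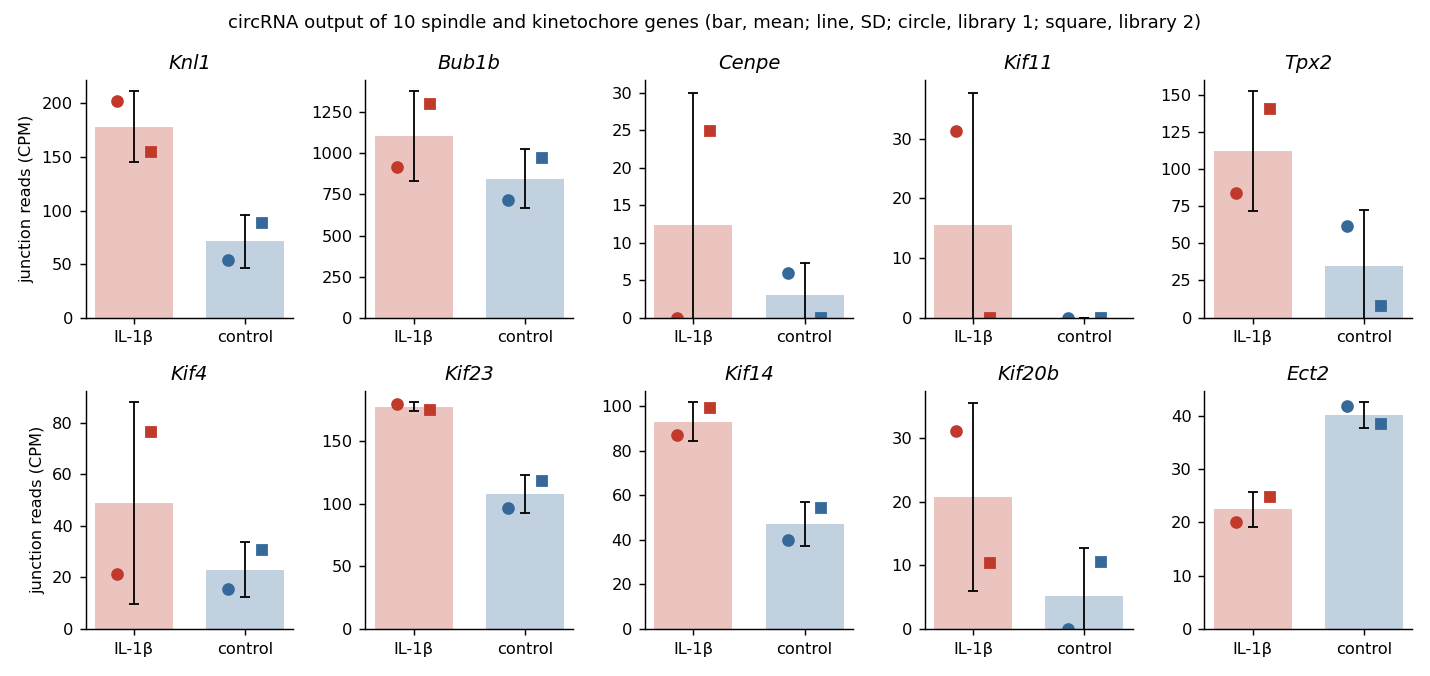
circRNA output of the 10 genes in CPM, each panel on its own axis from 0. Bars are means and lines SD (cut at 0) of 2 IL-1β libraries (red) and 2 controls (blue), and symbols are single libraries. The groups are apart in Knl1, Tpx2, Kif23, Kif14 and Ect2, and Kif11 and Cenpe have IL-1β reads in 1 library each.

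**Figure D3:**
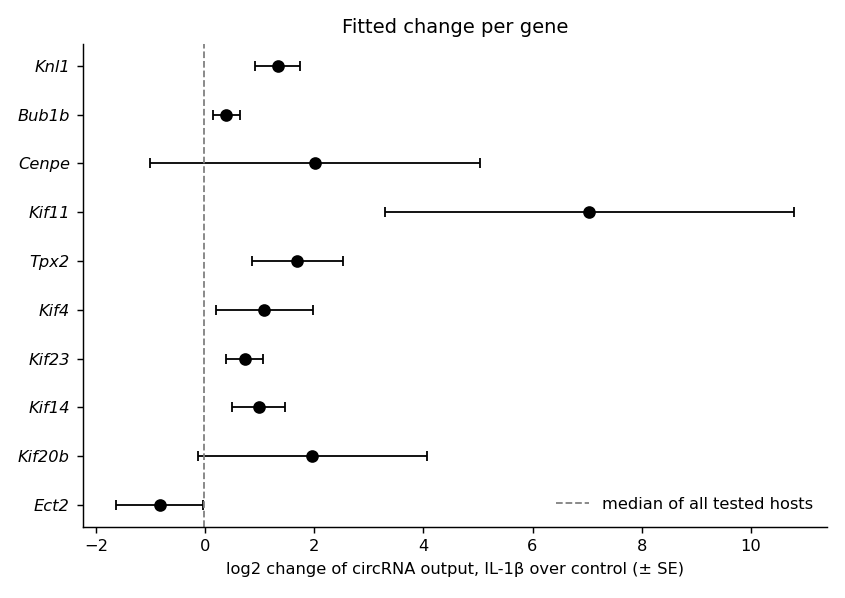
Fitted log2 change of circRNA output, IL-1β over control, with its SE, for each gene. Of the 10 points 9 lie right of the median of all tested hosts (dashed, -0.03), and the widest bars belong to Kif11 and Cenpe. The genes were chosen with earlier results of these data known.

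Knl1 is the kinetochore scaffold that binds microtubules and docks the checkpoint proteins Bub1 and BubR1 (chromosome 2, 119047119 to 119110497). It gave 181 and 150 junction reads in the IL-1β libraries, against 63 and 101 in controls. That is 178 ± 33.1 CPM under IL-1β, against 71.1 ± 24.5 CPM in controls (mean ± SD of n = 2), 2.51-fold higher, and the groups do not overlap. The log2 change was 1.33 ± 0.41 (SE), with an unadjusted p of 0.012 and an adjusted p of 0.882 in edgeR, and an adjusted p of 0.0585 in DESeq2 and 0.350 to 1.00 in the other alternatives. With 1 library left out it was 1.02 to 1.71.

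Knl1 made 4 circles, and the 3 with at least 20 reads are built from 2 starts and 2 ends. The largest, circRNA.20767 (119076936 to 119086650, 9715 bp between its ends), had 143 and 86 reads under IL-1β, against 34 and 23 in controls. This was 123 ± 48.8 CPM under IL-1β, against 24.0 ± 7.27 CPM in controls, a log2 change of 2.35 ± 0.52 with an unadjusted p of 0.00353 and an adjusted p of 0.886 over 15333 circRNAs in edgeR. It was the 1 member circle with an unadjusted p under 0.05, against 3.44% of circRNAs (1.83% higher and 1.62% lower). The adjusted threshold was passed by 0.0196% of circRNAs, 0.00652% with a higher value. It did pass in DESeq2 (adjusted p = 0.00175), in edgeR with the replicate number as a block (0.0141) and in edgeR with no read filter (0.0306), and the adjusted p was 0.467 to 1.00 in the other alternatives.

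The circle circRNA.20766 starts at the same base but ends earlier, at 119081625. It had 0 and 21 reads in the IL-1β libraries, against 20 and 48 in controls. Of the reads from this shared start, circRNA.20767 took 100% (143 of 143, 95% Wilson interval 97.4 to 100) and 80.4% (86 of 107, 71.9 to 86.8) in IL-1β libraries 1 and 2. It took 63.0% (34 of 54, 49.6 to 74.6) and 32.4% (23 of 71, 22.7 to 43.9) in controls 1 and 2. The shares do not overlap between the groups, and the interval of IL-1β 2 overlaps that of control 1.

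The circle circRNA.20765 shares the end of circRNA.20766 and starts before it, at 119076232. It had 38 and 34 reads under IL-1β, against 9 and 30 in controls, or 38.3 ± 4.89 CPM under IL-1β against 16.1 ± 11.9 CPM in controls. Of the reads at that shared end it took 100% and 61.8% under IL-1β, against 31.0% and 38.5% in controls. The shares at the start and at the end are both set against the same circRNA.20766 reads, so they are not separate observations. How often such shares are apart over the series was not counted. Of these 3 circles, the 2 with higher IL-1β values each use 1 of the 2 shared sites, and circRNA.20766, which uses both, had the lower value. The remaining Knl1 circle, circRNA.20768 (119097418 to 119102621), uses neither, had too few reads to be tested and held 0 and 9 reads under IL-1β, against 0 in both controls. The circle circRNA.20766 was named after its values were seen, and neither of these 2 circles passed the test (unadjusted p of 0.221 for circRNA.20765 and 0.476 for circRNA.20766).

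**Figure D4:**
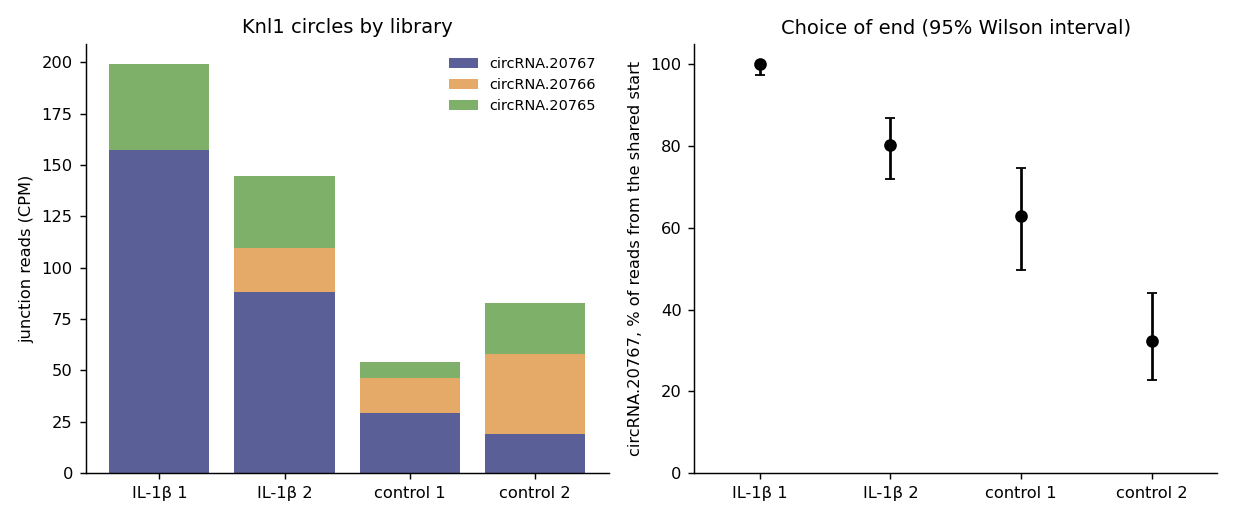
Left, reads in CPM of the 3 tested Knl1 circles stacked for each library. Right, share of reads from the shared start that belong to circRNA.20767, in percent with 95% Wilson intervals, which is 100 and 80.4 under IL-1β, against 63.0 and 32.4 in controls.

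Bub1b encodes BubR1, the checkpoint protein that restrains the anaphase-promoting complex until chromosomes are attached (chromosome 2, 118598202 to 118641592). Its output was 820 and 1258 reads under IL-1β, against 841 and 1114 in controls, or 1108 ± 273 CPM under IL-1β against 847 ± 181 CPM in controls. The groups overlap in CPM, with 915 CPM in IL-1β 1 and 975 CPM in control 2. The log2 change was 0.39 ± 0.25 (unadjusted p = 0.164, adjusted p = 0.882, edgeR), and it was 0.11 without IL-1β 2.

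Most reads of the gene came from 1 circle. The circle circRNA.20744 (118631759 to 118635277, 3519 bp) held 742 and 1197 reads under IL-1β, against 714 and 1014 in controls, 90.9% of all Bub1b reads. Its share of the gene's reads was 90.5% and 95.2% under IL-1β, against 84.9% and 91.0% in controls. Of the 4 other tested Bub1b circles, 3 lay below both controls in both IL-1β libraries, as did 17.2% of all tested circRNAs. Of these 3, circRNA.20746 passed the read filter through the controls alone, so it could only lie below.

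The circle circRNA.20737 (118617706 to 118623185), upstream of the main one, had 14 and 18 reads under IL-1β, against 50 and 43 in controls, or 16.9 ± 2.16 CPM under IL-1β against 39.0 ± 5.37 CPM in controls (log2 change -1.20 ± 0.78, unadjusted p = 0.170 in edgeR). The groups do not overlap. The circle circRNA.20746, which shares the start of the main circle but ends further on, at 118638575, had 0 reads in either IL-1β library, against 25 and 13 in controls, at least 5.03-fold lower against a floor of 3 reads per library. It was named after its values were seen. Of all reads from that start, it took 0 of 742 and 0 of 1197 in the IL-1β libraries (95% Wilson upper bounds 0.515% and 0.320%), against 3.37% and 1.27% in controls. The short circRNA.20742 (118630945 to 118631899, 955 bp), whose last bases overlap the first of the main circle, had 44 and 19 reads under IL-1β, against 15 and 27 in controls, and the groups overlap.

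Cenpe, a kinesin that carries chromosomes along microtubules to the spindle equator, was close to the detection limit (chromosome 3, 135212563 to 135273540). It had 0 and 24 reads under IL-1β, against 7 and 0 in controls, spread over 3 circles that were each read in 1 library. The most read, circRNA.24348 (135224996 to 135230156), had 13 reads, all in IL-1β 2. The gene's log2 change of 2.01 ± 3.03 was -4.73 without that library, so no direction can be given.

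Kif11 is the kinesin-5 motor (Eg5) that pushes the spindle poles apart (chromosome 19, 37376382 to 37421863). All 28 of its reads, over 4 circles, came from IL-1β 1, with 0 reads in IL-1β 2 and in both controls. The circles lie apart along the gene and share no end, and the most read, circRNA.16653 (37411331 to 37418017), had 11 reads. The fitted log2 change of 7.04 ± 3.75 rests on that 1 library and is no bound. With 3 reads set in each control library, Kif11 still lay above the median of the 10 genes. Its size cannot move the median from there, which stays at 1.20. Without IL-1β 1, where Kif11 has no reads, the median was 1.02.

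Tpx2 activates Aurora A kinase and nucleates microtubules around chromosomes (chromosome 2, 152847964 to 152895321). It gave 75 and 136 reads under IL-1β, against 72 and 9 in controls, or 112 ± 40.3 CPM under IL-1β against 34.7 ± 37.9 CPM in controls. Both IL-1β libraries were above both controls, and control 2 was by far the lowest. The log2 change was 1.69 ± 0.83 (unadjusted p = 0.0754, adjusted p = 0.882, edgeR). It was 0.84 without control 2 and 3.82 without control 1, so the size depends on which control is used.

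Tpx2 had 10 circles, 9 of which share a start or end with another. The most read, circRNA.21686 (152885011 to 152889322, 4312 bp), had 54 and 54 reads under IL-1β, against 34 and 9 in controls, or 57.4 ± 2.83 CPM under IL-1β against 18.2 ± 15.4 CPM in controls. These 9 reads were the whole Tpx2 output of control 2, where 1 circle was read, while IL-1β libraries 1 and 2 had 5 and 9 circles and control 1 had 5. The remaining Tpx2 circles were thus at 0 in control 2.

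**Figure D5:**
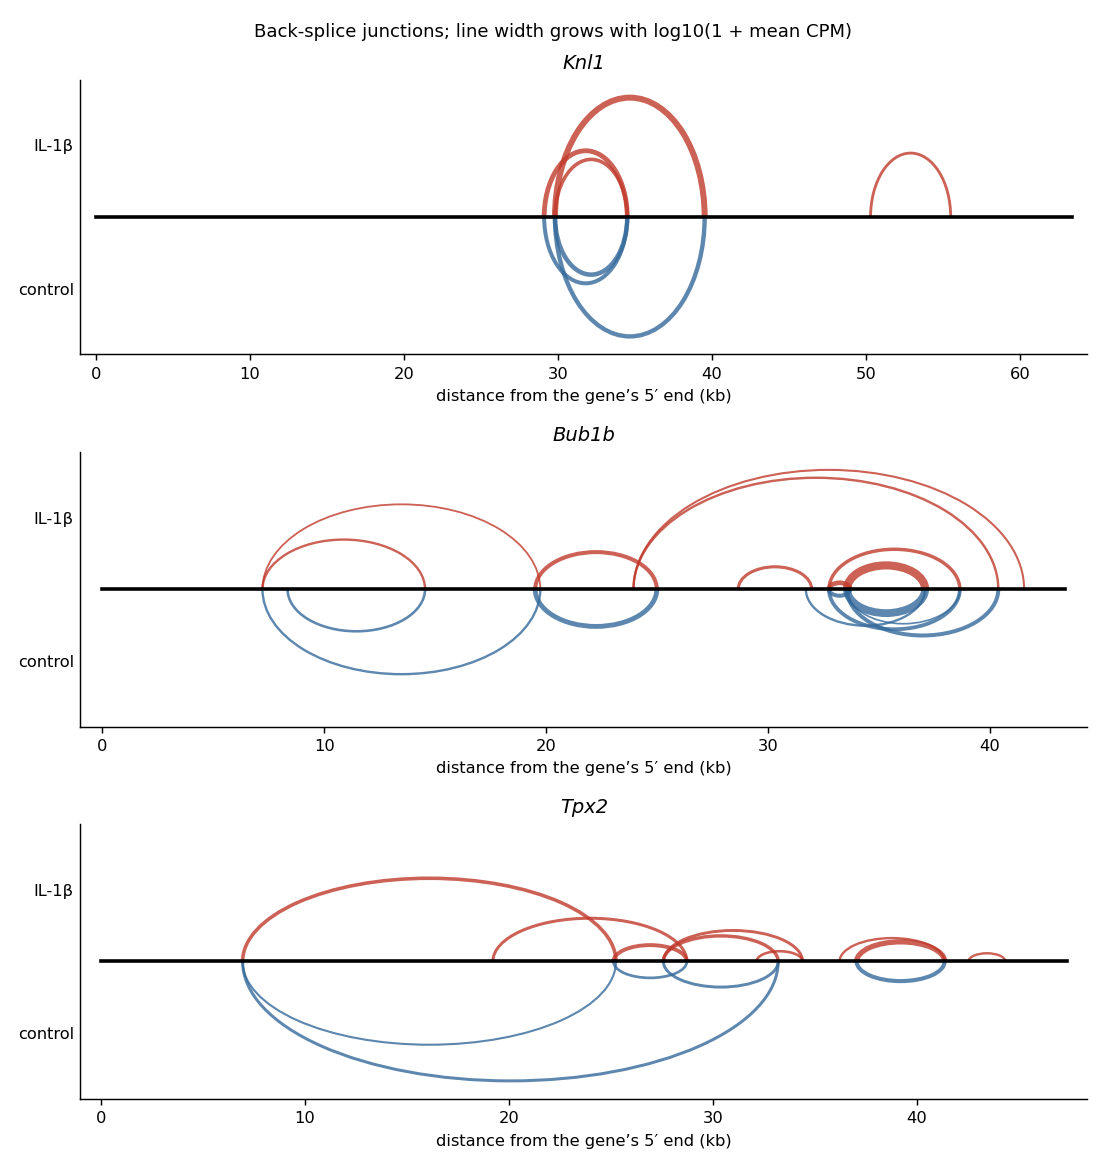
Back-splice junctions of Knl1, Bub1b and Tpx2 drawn as arcs between their ends, in kb from the 5′ end of the gene, with IL-1β means above the line and control means below. Line width grows with log10(1 + mean CPM). Knl1 circles with most reads lie within 1 stretch of the gene, and a single thick arc pair marks the main Bub1b circle.

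Among the genes of the central spindle and cleavage, Kif23 and Kif14 lay above both controls in both IL-1β libraries and Ect2 lay below. Kif23 (MKLP1) is the motor of centralspindlin, which bundles midzone microtubules (chromosome 9, 61917277 to 61946810). It gave 161 and 169 reads under IL-1β, against 113 and 135 in controls. That is 177 ± 3.46 CPM under IL-1β, against 107 ± 15.3 CPM in controls, 1.65-fold higher and not overlapping. The log2 change was 0.72 ± 0.34 (unadjusted p = 0.0662, adjusted p = 0.882, edgeR), and 0.59 to 0.86 with 1 library left out.

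Kif23 made 6 circles, and the largest, circRNA.39705 (61919612 to 61925143, minus strand), had 74 and 96 reads under IL-1β, against 58 and 98 in controls, a log2 change of 0.47 ± 0.44. The circle circRNA.39709 (61935380 to 61937535) had 64 and 23 reads under IL-1β, against 37 and 0 in controls. Its groups overlap in CPM, and control 2 had none. For circRNA.39705 both IL-1β libraries were above both controls in CPM, with 81.3 CPM in IL-1β 1 against 80.2 CPM in control 2.

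Kif14 is a motor that recruits citron kinase to the midbody for the final cut between daughter cells (chromosome 1, 136466301 to 136555938). Its output was 78 and 96 reads under IL-1β, against 47 and 62 in controls, or 93.1 ± 8.65 CPM under IL-1β against 47.2 ± 9.98 CPM in controls, 1.97-fold higher and not overlapping (log2 change 0.98 ± 0.49, unadjusted p = 0.0791, adjusted p = 0.882, edgeR). The circle circRNA.17994 (136502647 to 136513822, 11176 bp) had 63 and 88 reads under IL-1β, against 39 and 52 in controls, 85.5% of the gene's reads. The other 8 Kif14 circles were each read in 1 library.

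Kif4, a chromosome-bound kinesin that limits midzone microtubule length with Prc1 (chromosome X, 100626065 to 100727271), had 19 and 74 reads under IL-1β, against 18 and 35 in controls. IL-1β 2 alone stood high, with 8 of the 10 circles, against 3 in IL-1β 1 and 2 in each control, and the groups overlap. Without it the log2 change of 1.08 ± 0.88 was -0.12. Its most read circle, circRNA.40594 (100633839 to 100638771), had 8 and 20 reads under IL-1β, against 15 and 28 in controls, a log2 change of -0.29 ± 1.38. The higher Kif4 sum thus lay in other, rarer circles of 1 library.

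Kif20b (MPP1), a kinesin needed for cleavage, had 28 and 10 reads under IL-1β, against 0 and 12 in controls (chromosome 19, 34922335 to 34975750). Of these, circRNA.16517 (34966047 to 34970117) held 80.0%, with 18 and 10 reads under IL-1β, against 0 and 12 in controls. Control 1 had no reads, and the groups overlap for the gene. Its log2 change was 1.96 ± 2.10 (unadjusted p = 0.377 in edgeR), and 0.96 to 7.40 with 1 library left out, the highest without control 2.

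Ect2 is the exchange factor that activates RhoA to form the contractile ring, and it was the 1 gene with a lower value (chromosome 3, 27097222 to 27154253). It had 18 and 24 reads under IL-1β, against 49 and 44 in controls. That is 22.4 ± 3.35 CPM under IL-1β, against 40.2 ± 2.37 CPM in controls, 1.79-fold lower and not overlapping. The log2 change was -0.84 ± 0.79 (unadjusted p = 0.322, adjusted p = 0.9997, edgeR), and -0.997 to -0.694 with 1 library left out.

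Most of the difference in Ect2 reads lay in 1 circle. The circle circRNA.24592 (27137025 to 27139662, minus strand, 2638 bp) had 0 reads in either IL-1β library, against 23 and 12 in controls, at least 4.63-fold lower against 3 reads per library (unadjusted p = 0.0904 in edgeR). It passed the read filter through the controls alone, so it could only lie below. It was named after its values were seen. The most read circle, circRNA.24590 (27131785 to 27145059), had 18 and 7 reads under IL-1β, against 22 and 23 in controls, and the groups overlap.

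The genes differed widely in level. Scaled by gene span, Bub1b stood highest at 225 ± 55.7 CPM per 10 kb (mean ± SD, n = 4 libraries), followed by Kif23 at 48.2 ± 14.0. Then came Knl1 at 19.7 ± 10.5, Tpx2 at 15.5 ± 11.6, Kif14 at 7.83 ± 3.08, Ect2 at 5.49 ± 1.84 and Kif4 at 3.55 ± 2.74. Kif20b at 2.44 ± 2.45, Kif11 at 1.72 ± 3.43 and Cenpe at 1.26 ± 1.93 CPM per 10 kb came last. Bub1b and Kif23 stood clear of the gene below them in every library, since the lowest value of Bub1b, 166, is above the highest of Kif23, 60.8, and the lowest of Kif23, 32.7, is above the highest of Knl1, 31.9. From Knl1 down, the ranges of neighbours overlap.

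The shares of circles found in all libraries or in 1 were close to those of the series. Of the 67 circles 12 (17.9%) were read in all 4 libraries and carried 87.1% of the reads, against 16.8% of all 40909 circRNAs and 85.0% of their reads. Another 42 (62.7%) appeared in just 1 library, against 58.6% of all. There were 2 read in both IL-1β libraries and neither control (1 each of Kif4 and Tpx2, with at most 7 reads in a library) and 2 read in both controls and neither IL-1β library (circRNA.20746 and circRNA.24592), against 1004 and 1111 of the 40909 in the series. The libraries with IL-1β held 32 and 39 of the 67 circles, and the controls 30 and 22. Over the series these were 17649 and 19317 of the 40909 circRNAs under IL-1β, against 20662 and 17960 in controls.

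Many of the circles shared an end. The median distance between their ends was 5626 bp, against 10570 bp over the series, and the range was 387 to 26246 bp. The 67 circles used 51 starts, 13 of them in more than 1 circle, and 51 ends, 14 of them in more than 1 circle. In all, 42 circles shared at least 1 end with another circle of the same gene, while those of Kif11, Cenpe and Kif20b shared none. Of the 21 circles with at least 20 reads, both IL-1β libraries were above both controls in 8 (16.4% of all tested circRNAs) and below in 4 (17.2%). The 4 were 3 of Bub1b and 1 of Ect2. Among them, circRNA.20746 and circRNA.24592 reached 20 reads through the controls alone, so they could only lie below. Also of the 4, circRNA.20743 would not have reached 20 reads on its IL-1β libraries alone (10 and 7 reads). Of the 8, circRNA.21678, circRNA.21681 and circRNA.16517 would not have reached 20 reads on their controls alone. Their control reads were 4 and 0, 9 and 0, and 0 and 12. How often this holds over the series was not counted, so no excess is drawn from the 8.

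The rest of the spindle and kinetochore machine was set beside these genes. From a list of 137 further genes, 101 had junction reads and 73 were tested. Of these, 43 had a higher and 30 a lower value, against 48% of all hosts with a positive change. The median log2 change was 0.17. With depth taken from the authors' deposited SRPBM instead of TMM, 36 of 73 were higher and the median was -0.03, while the median of all hosts was -0.24. None passed edgeR's test over all hosts, and 1 had an unadjusted p under 0.05, against 4.55% of all hosts. Both IL-1β libraries were above both controls in 14 and below in 7, against 17% and 18.9% of all hosts.

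The gene with an unadjusted p under 0.05 was Ckap2, a spindle microtubule protein. It had 43 and 37 reads under IL-1β, against 0 and 5 in controls (log2 change 4.23 ± 1.54, unadjusted p = 0.0243, adjusted p = 0.882 in edgeR). Kif2a, a microtubule-depolymerising kinesin, had 120 and 127 reads under IL-1β, against 90 and 76 in controls. Ckap2l had 17 and 7 reads under IL-1β, against 0 in both controls, at least 5.05-fold higher against 3 reads per library. The centrosome scaffold gene Cep192, one of the most read, stood at 1088 ± 3.72 CPM under IL-1β, against 865 ± 33.8 CPM in controls. Ska3, a kinetochore coupler, had 22 reads in IL-1β 2 and 0 in the other libraries.

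On the lower side, Cenpa, the centromeric histone, had 0 reads in either IL-1β library, against 17 and 11 in controls, at least 3.75-fold lower. The dynein heavy chain gene Dync1h1 stood at 96.7 ± 22.6 CPM under IL-1β, against 153 ± 11.4 CPM in controls, and the anaphase-promoting complex gene Cdc16 at 33.5 ± 9.58 CPM under IL-1β against 57.4 ± 16.8 CPM in controls. Kif2c had 25 reads in control 2 alone. Cenpa and Kif2c thus passed the read filter through controls alone, and Ckap2l and Ska3 through IL-1β libraries alone. The direction of each was fixed by the filter, and all are among the higher and lower values counted above. The centrosome gene Pcnt stood at 179 ± 10.4 CPM under IL-1β, against 246 ± 112 CPM in controls, where its groups overlap. Of the other highly read genes, Ckap5, a microtubule polymerase, stood at 878 ± 26.7 CPM under IL-1β against 780 ± 16.6 CPM in controls, and Cit, the citron kinase that Kif14 recruits, at 826 ± 241 CPM under IL-1β against 792 ± 204 CPM in controls.

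Genes of DNA replication, the phase before mitosis, were treated in the same way. Of 59 listed genes 34 were tested, 20 with a higher and 14 with a lower value, against 48% of all hosts with a positive change. The median log2 change was 0.36, against -0.03 over all hosts, and 0 passed edgeR's adjusted threshold. At an unadjusted p under 0.05 in edgeR there was 1, against 4.55% of all hosts. Both IL-1β libraries were above both controls in 7 and below in 0, against 17% and 18.9% of all hosts. The polymerase gene Pola1 stood at 394 ± 11.3 CPM under IL-1β, against 237 ± 3.45 CPM in controls (unadjusted p = 0.0168), and the helicase gene Hells at 53.7 ± 1.37 CPM under IL-1β against 14.8 ± 7.59 CPM in controls. Cdc45 had 34 reads in IL-1β 1 alone, so its value could only be higher. Rrm1 stood at 112 ± 55.5 CPM under IL-1β, against 174 ± 67.2 CPM in controls, Chaf1b at 2.58 ± 3.65 CPM under IL-1β against 18.4 ± 26.0 CPM in controls, and Mcm9 at 77.6 ± 46.7 CPM under IL-1β against 112 ± 53.9 CPM in controls. The groups overlap in Rrm1, Chaf1b and Mcm9.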

How the data were processed

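Per the file headers, each circRNA has a whole-number count of junction reads for every library. The authors also deposited SRPBM, a signal scaled to depth. The submitters' processing notes name mm10 and Bowtie2, while no circRNA caller or filter is given in the sources used here. RNase R treatment and strand-specific libraries are per the labels' protocols. The 4 single-library tables hold the values of the series table.

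Hosts were RefSeq genes (GRCm38.p6) that hold both ends, 1 coding gene or else 1 other gene. Counts of hosts or circRNAs with at least 20 reads went into edgeR 4.0.16 (R 4.3.3), using its quasi-likelihood test on all 4 libraries with TMM scaling and group as the only term, and Benjamini-Hochberg adjustment over all tested features at 0.05. All 10 member genes and 21 of 67 member circRNAs had that many reads. Standard errors are the log2 change over the square root of F. Gene CPM uses host factors and circRNA CPM circRNA factors. Intervals (scipy 1.17.1) and floors cover counting error only.

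Alternatives were a replicate block, DESeq2 1.42.0, other scalings and read filters, each library left out, junctions within 5 nt summed and restricted circles. The members and lists were chosen with earlier results of these data known. Named were the members, each gene's most read circRNA, those with at least 100 reads or an unadjusted p under 0.05, and, of the spindle list, the 5 genes a direction with the lowest p and the 3 most read, and of the replication list 3 a direction.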

Additional observations from a re-analysis of the deposited data

How the results depend on the processing

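The member genes kept 7 to 9 higher values with 1 library left out, with a median log2 change of 0.81 to 1.10. Of the 73 other spindle genes 40 to 47 were higher, with a median of 0.10 to 0.21. Without circles read in 1 library, Kif11 and Cenpe dropped out, and 7 of 8 members were higher with a median of 0.86. There the log2 change of Kif4 was 0.20. With at least 50 reads the same genes dropped out, and 7 of 8 were higher with a median of 1.03. Kif20b, counted as higher there, stayed with 50 reads in all. Over all hosts 0 passed in edgeR (222 had an unadjusted p below 0.05, and 526 in DESeq2), against 20 with the replicate block, 55 in DESeq2, 12 without a read filter and 1 to 5 with 1 library left out. Over all circRNAs 3 passed, against 61 with the replicate block, 106 in DESeq2, 61 without a filter, 0 with at least 50 reads, 0 with junctions within 5 nt summed and 0 to 10 with 1 library left out. The cause was not tested. The replicate numbers are not known to pair libraries: the deviations of same-numbered libraries correlated at 0.027 over 4879 hosts. With the block 0 member genes passed, as in each other alternative, and of the member circRNAs circRNA.20767 passed with the block. The Kif23 circle circRNA.39710, at 0.0056 in the fit used, had a log2 change of -1.91 with the block, -0.18 with SRPBM depth and -0.011 without a filter. With 1 library left out log2 changes crossed 0 for circRNA.39710 (-6.02 to 0.97), Kif4 (-0.12 to 1.73), Cenpe (-4.73 to 6.64), circRNA.24590 (-1.40 to 0.047), circRNA.39707 (-0.39 to 1.62), circRNA.40594 (-1.04 to 0.19) and circRNA.21682 (-0.62 to 6.21). Leaving out a library leaves 1 in its group, which is assumed to vary like the others. Most member circles have too few reads to show a difference.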

Other observations

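Other genes of dividing cells were read at low levels and did not share 1 direction. The proliferation marker Mki67 had 49 and 28 reads under IL-1β, against 16 and 70 in controls, and the topoisomerase gene Top2a 45 and 68 reads under IL-1β, against 47 and 7 in controls. Cdk1, the mitotic kinase, had 0 reads in either IL-1β library, against 27 and 19 in controls, at least 6.16-fold lower against 3 reads per library. Its unadjusted p was 0.0373 and its adjusted p 0.882 in edgeR, and it passed the 20-read filter through the controls alone. The cyclin genes Ccnb1 and Ccna2 had reads in 1 library each, 4 in IL-1β 1 and 13 in control 2. Tpx2 and Top2a both had their lowest value in control 2, where Mki67 had its highest.

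Of the 42 member circles read in a single library, 11 were in IL-1β 1 and 18 in IL-1β 2, against 8 in control 1 and 5 in control 2. They held 68 and 153 reads under IL-1β, against 48 and 30 in controls, and no such circle had more than 18 reads. The same split over the whole series was not counted, so no difference between the groups is drawn from it.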
